A study of Mus musculus with 6 samples.

Results

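The 10 genes described here encode TGF-beta ligands (Tgfb1, Tgfb2 and Tgfb3), their receptors (Tgfbr1, Tgfbr2 and Tgfbr3), the inhibitory Smad gene Smad7, the activin subunit gene Inhba, the activin antagonist gene Fst and the target gene Tgfbi. They were chosen by platform gene symbol, with the brightest single-symbol probe set per gene, and all 10 were found among the 19938 genes measured. Each of them has 1 probe set, so none had to be chosen over another. The study hybridised RNA of cultured keratinocytes, which form the epidermis, from C57BL/6 mouse skin at stage E18.5 to 6 Affymetrix whole-transcript arrays. The Ovol1/2 double knockout group (DKO) was Ovol2flox/-;K14-Cre on an Ovol1-/- background, the Ovol1 knockout group (Ovol1 KO) was Ovol1-/-, and the control group was Ovol2flox/+ with either Ovol1+/- or K14-Cre. Each group has 2 arrays, described in the labels as biological replicates, and each array pools 2 mice. The K14 promoter drives Cre in basal keratinocytes, so the conditional Ovol2 allele of DKO is removed in cells of that lineage, while its other Ovol2 allele is absent from all cells, and control animals carry 1 conditional Ovol2 allele. Per the design text, cells of every group grew for 2 to 5 days, received calcium, which sets off keratinocyte differentiation, and grew for another 3 to 5 days.

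TGF-beta ligands are secreted in a latent form bound to their own propeptide, and integrins or matrix proteins release them. The active ligand binds the type II receptor, which phosphorylates the type I receptor, and this in turn phosphorylates Smad2 and Smad3, which enter the nucleus with Smad4. In epidermis the pathway is known for restraining keratinocyte proliferation, and activins, built from Inhba chains, signal through related receptors and are known from wound repair.

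Values below are log2(intensity + 16) after quantile normalization unless stated otherwise. A difference was called when its limma p-value, adjusted over all 19938 genes with the Benjamini-Hochberg method, was below 0.05. With 2 arrays a group, an exact permutation test cannot go below p = 0.333, so the tests rest on the spread that limma pools over the 3 groups and shares between genes.

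Signals of sex-linked genes went against the female label on 3 of the 6 arrays. Xist, expressed from the inactive X chromosome, lay at 12.12 and 12.26 in DKO arrays 1 and 2, at 4.59 and 11.97 in Ovol1 KO arrays 1 and 2, and at 4.71 and 4.65 in control arrays 1 and 2. The Y-linked gene Kdm5d ran the opposite way, with 7.53 and 7.64 in DKO, 14.70 and 7.50 in Ovol1 KO, and 14.70 in both control arrays. The value 14.70 is the ceiling of the scale after quantile normalization. In DKO against control, genotype and sex-linked signal therefore cannot be told apart. DKO against Ovol1 KO array 2 compares arrays of like signal and is given below for Tgfb2, Tgfbi, Fst and Itgb6. The keratinocyte genes Krt5 and Krt14 lay between 13.61 and 13.94 on all arrays, but other keratinocyte genes differed. Of 12 such genes 3 rose and 1 fell in DKO against control, and 8 did not pass. Over all genes 0.943% rose and 2.26% fell. The differentiation genes Krt1, Krt10 and Lor rose by 4.15, 4.14 and 1.95 on the log2 scale (SE 0.64, 0.37 and 0.29, limma adjusted p = 0.022, 0.0035 and 0.019). Krt1 reached the ceiling of 14.70 in DKO array 1, which limits its fold change. Itgb4, an integrin gene, fell by 0.79 (SE 0.13, limma adjusted p = 0.030). Trp63 and the integrin gene Itga6 had log2 fold changes of 0.75 and 0.23 and did not pass (limma adjusted p = 0.061 and 0.64). Of the 12 log2 fold changes 8 were positive and 4 negative. The summed level of the 12 genes on the intensity scale was 115503 and 89473 in DKO, 74674 and 72816 in Ovol1 KO, and 73012 and 73117 in control. The part of this difference in the values of the members was not tested. Some melanocyte, endothelial and fibroblast genes also differed between arrays and are given below. The probe sets of Ovol1 and Ovol2 did not separate the genotypes, with log2 fold changes of 0.53 and 0.04 in DKO against control (limma adjusted p = 0.30 and 0.98), and whether they lie in the deleted parts is not stated.

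Loss of both Ovol genes went with lower Tgfb2 and Fst and higher Tgfbi, and 7 of the 10 members did not pass the test. In DKO against control 1 member rose and 2 fell, while 3.2% of all genes were called, 0.943% higher and 2.26% lower. The members' median log2 fold change was -0.31, against 0.02 over all genes, and their median absolute log2 fold change was 1.36, against 0.17. An unadjusted p below 0.05 was found for 8 members and for 14.5% of all genes. The 2 groups did not overlap for 9 members, 4 higher and 5 lower in DKO, and for 44.6% of all genes, 23.1% higher and 21.5% lower. With the Xist level as a covariate 0 members were called in this comparison. The log2 fold change was then -3.32 for Tgfb2, -2.70 for Fst and 1.501 for Tgfbi (limma adjusted p = 0.094, 0.14 and 0.52). The members and the lists below were chosen with earlier results of these data known, so these counts describe the genes and test nothing about them as a set. In bulk RNA, fewer cells of a type and less RNA per cell cannot be told apart.

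**Figure D1:**
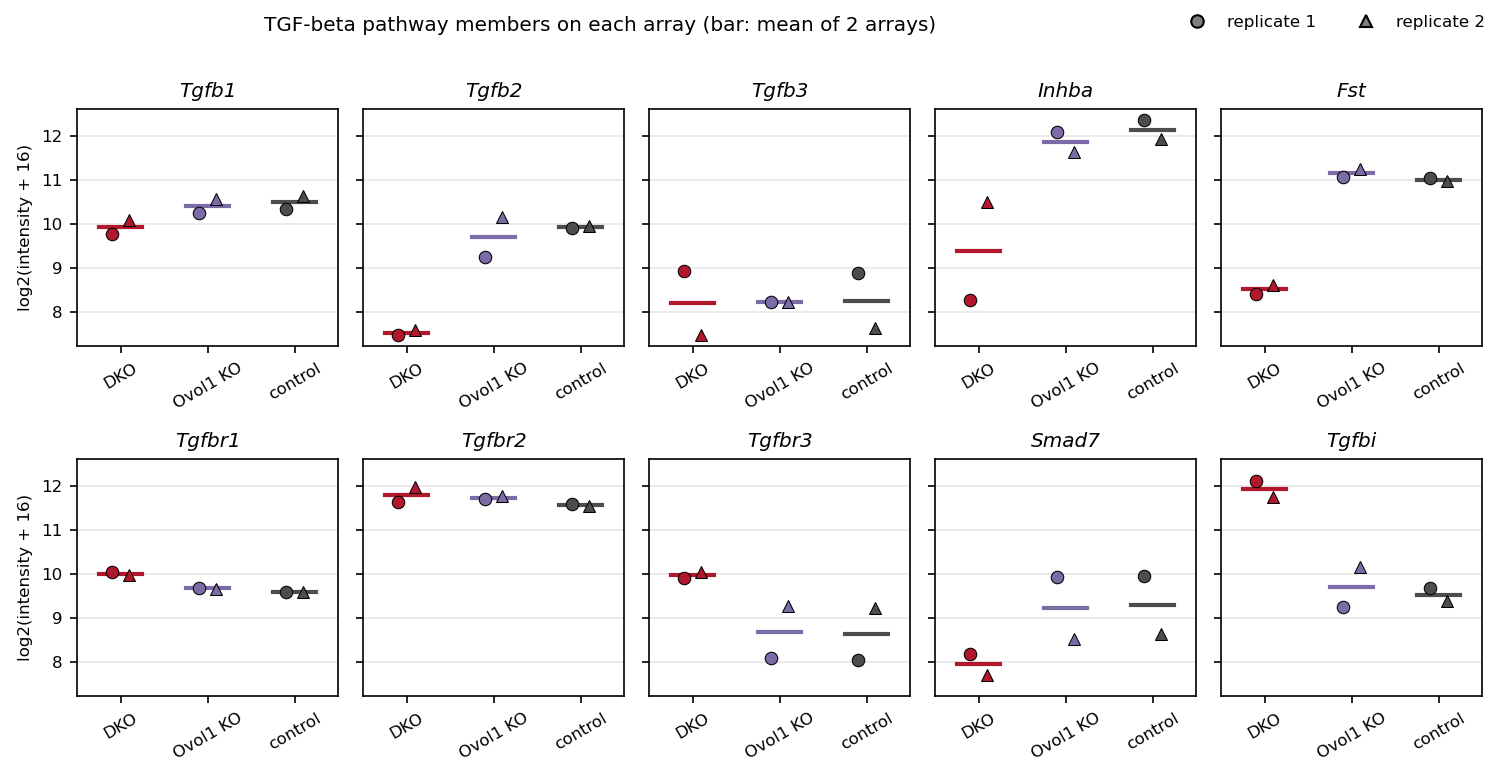
Level of each member on each array as log2(intensity + 16), with circles for replicate 1, triangles for replicate 2 and bars for the mean of the 2 arrays of DKO, Ovol1 KO and control. Tgfb2 and Fst in both DKO arrays lie below all 4 other arrays and Tgfbi above them, while Tgfb3, Tgfbr3, Smad7 and Inhba differ by more than 1 unit between the 2 arrays of at least 1 group. Levels may be compared within a gene but not between genes.

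Among the ligand genes, Tgfb2 fell and Tgfb1 and Tgfb3 did not pass the test. Tgfb2 (probe set 10360920) lay at 7.46 and 7.58 in DKO arrays 1 and 2, at 9.26 and 10.15 in Ovol1 KO arrays 1 and 2, and at 9.91 and 9.95 in control arrays 1 and 2. Both DKO arrays were thus more than 1.5 units below the other 4, and the 2 Ovol1 KO arrays lay on either side of the control values. In DKO against control the log2 fold change of Tgfb2 was -2.41 (SE 0.30, limma adjusted p = 0.010), a 5.3-fold lower signal. In DKO against Ovol1 KO it was -2.18 (SE 0.30, adjusted p = 0.018), and with Ovol1 KO array 1 left out it was -2.63 (SE 0.23, adjusted p = 0.024). Both calls were lost with either DKO array left out, with values from -2.47 to -2.35 against control and from -2.24 to -2.12 against Ovol1 KO.

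Tgfb1 (probe set 10551185), the ligand made by many cell types, lay at 9.78 and 10.09 in DKO, 10.25 and 10.57 in Ovol1 KO, and 10.35 and 10.65 in control. Replicate 1 was about 0.3 units below replicate 2 in every group, by 0.31, 0.31 and 0.30 in DKO, Ovol1 KO and control. Between arrays of the same number, DKO was lower than control by the same amount in both cases, with differences of -0.56 and -0.56. The log2 fold change of -0.56 (SE 0.21) did not pass (limma adjusted p = 0.28), and its 95% interval ran from -1.06 to -0.07. Tgfb3 (probe set 10401673), the third ligand gene, had 8.92 and 7.47 in DKO, 8.23 and 8.22 in Ovol1 KO, and 8.88 and 7.64 in control. Replicate 1 was more than 1 unit above replicate 2 in DKO and in control but not in Ovol1 KO. Its log2 fold change in DKO against control was -0.07 (SE 0.54, limma adjusted p = 0.98), with a 95% interval from -1.35 to 1.22.

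A promoter window of Tgfb2, the ligand gene that fell, and 1 of Tgfbi, the target gene that rose, are shown. Both members were called in DKO against control. Both windows are the 250 bases before an annotated start in RefSeq's GRCm38.p6 annotation, on the gene's own strand. Such windows were used for 6 of the 10 members, and none was at hand for Fst, the other called member. Capitals mark matches to any of 3 motifs searched on both strands, namely CCGTTA, the core known for Ovol proteins, CAGGTG, the E-box bound by Zeb proteins, and CAGACA, the CAGA box bound by Smad proteins. Of 32851 promoter windows of this length, 2.18% held the first, 17.2% the second and 17.1% the third. The Tgfb2 window lies at chr1:186705990-186706239 on the minus strand and the Tgfbi window at chr13:56609336-56609585 on the plus strand. The Tgfbi window ends directly before the gene's span begins. The Tgfb2 window lies inside the gene's annotated span, chr1:186622787-186709697. The start it precedes is thus not the outermost start of the gene.
Tgfb2: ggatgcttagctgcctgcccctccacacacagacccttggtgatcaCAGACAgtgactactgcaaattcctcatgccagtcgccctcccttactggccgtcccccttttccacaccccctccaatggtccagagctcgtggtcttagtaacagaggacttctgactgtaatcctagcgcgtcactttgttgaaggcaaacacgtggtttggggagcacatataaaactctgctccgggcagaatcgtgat
Tgfbi: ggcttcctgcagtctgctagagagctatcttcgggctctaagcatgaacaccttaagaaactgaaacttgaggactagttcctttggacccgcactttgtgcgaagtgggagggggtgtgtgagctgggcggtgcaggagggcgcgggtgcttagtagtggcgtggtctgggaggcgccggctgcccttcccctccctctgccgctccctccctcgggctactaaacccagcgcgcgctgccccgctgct
The Tgfb2 window held 1 match, a CAGA box whose first base is 204 bases before that inner start, and 53.6% of its bases were G or C. The Tgfbi window held 0 matches and 62.4% G or C. These are descriptions of letters in a window and say nothing of binding in these cells.

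Among genes that hold or release latent ligand, Itgb6 and Thbs1 fell in DKO. Of 11 latency and activation genes 2 fell and 0 rose in DKO against control, beside 2.26% and 0.943% of all genes, with a median log2 fold change of -0.52 against 0.02 over all genes. Itgb6, which encodes the beta chain of an integrin that activates latent TGF-beta, lay at 7.91 and 8.37 in DKO, 11.83 and 11.75 in Ovol1 KO, and 11.82 and 11.72 in control. The DKO arrays were more than 3 units below all others. Its log2 fold change was -3.63 (SE 0.19, limma adjusted p = 0.00067) against control and -3.65 (SE 0.19, adjusted p = 0.00071) against Ovol1 KO, and both calls held with each array left out in turn. Against Ovol1 KO array 2 alone it was -3.61 (adjusted p = 0.020). Thbs1, encoding thrombospondin 1, a matrix protein that also activates the latent ligand, had 11.40 and 12.00 in DKO, 12.95 and 12.79 in Ovol1 KO, and 13.01 and 12.97 in control. It fell by 1.29 on the log2 scale in DKO against control (SE 0.18, limma adjusted p = 0.017) and by 1.17 against Ovol1 KO (adjusted p = 0.029). The call against Ovol1 KO was lost without either Ovol1 KO array, without the variance trend and with Xist as a covariate. The latent binding protein gene Ltbp4 was chosen after its values were seen. It stood at 10.01 and 10.34 in DKO, above 8.05 and 9.06 in control, with a log2 fold change of 1.62 that did not pass (SE 0.42, limma adjusted p = 0.11).

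Of the receptor genes 0 passed the test in DKO against control, where 3.2% of all genes were called. Tgfbr1 (probe set 10504817), the signalling type I receptor, lay at 10.04 and 9.98 in DKO, 9.69 and 9.66 in Ovol1 KO, and 9.58 in both control arrays. The arrays of each group were within 0.1 units of each other, and the DKO arrays lay above the rest. DKO against control gave a log2 fold change of 0.43 (SE 0.17, limma adjusted p = 0.30). Tgfbr2 (probe set 10597518), the ligand-binding type II receptor, had 11.63 and 11.98 in DKO, 11.71 and 11.78 in Ovol1 KO, and 11.60 and 11.55 in control. Its log2 fold change was 0.23 (SE 0.14, limma adjusted p = 0.57), and the 95% interval from -0.11 to 0.57 lies inside a 2-fold change.

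Tgfbr3 (probe set 10532085) encodes betaglycan, a co-receptor that presents TGF-beta2 to the type II receptor. It lay at 9.90 and 10.06 in DKO, 8.08 and 9.26 in Ovol1 KO, and 8.03 and 9.22 in control. Both DKO arrays were above all others, and in the other groups replicate 2 was about 1.2 units above replicate 1. DKO against control gave a log2 fold change of 1.35 (SE 0.49, limma adjusted p = 0.26). It was 0.76 without control array 1 (limma adjusted p = 0.76), 1.95 and called without control array 2 (adjusted p = 0.048), and 0.16 with Xist as a covariate (adjusted p = 0.98). The log2 fold changes of 8 further receptor genes of the TGF-beta and activin branch ran from -0.004 to 0.42. In DKO against control 0 of them were called, beside 3.2% of all genes. An unadjusted p below 0.05 in limma was found for 14.5% of all genes and for 0 of these 8. Acvrl1, a type I receptor best known from endothelium, had the smallest p of these, at 9.71 and 9.90 in DKO, 8.85 and 9.56 in Ovol1 KO, and 9.30 and 9.48 in control (limma adjusted p = 0.58).

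Smad7 (probe set 10456745), whose product blocks the type I receptor and which the pathway itself induces, had 8.17 and 7.71 in DKO, 9.92 and 8.53 in Ovol1 KO, and 9.95 and 8.64 in control. The DKO arrays were below all others, yet replicate 1 was 1.40 units above replicate 2 in Ovol1 KO and 1.31 in control, about as much as the groups differed. DKO against control gave a log2 fold change of -1.36 (SE 0.56, limma adjusted p = 0.33). Between arrays of the same replicate number it was -1.79 for replicate 1 and -0.93 for replicate 2. With single arrays left out it ran from -2.02 without control array 2 to -0.70 without control array 1, and was not called. For Tgfbr3 the same-number differences were 1.88 and 0.83.

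Some markers of pigment-producing melanocytes and of endothelial cells also differed by replicate number. The summed level of 8 melanocyte genes, on the intensity scale, was 1875 in DKO array 1, 6729 in Ovol1 KO array 1 and 5122 in control array 1. For replicate 2 it was 1081 in DKO, 1497 in Ovol1 KO and 1409 in control. None of the 8 was listed at 0, and Tyr and Dct lay between 5.07 and 5.33 on the log2 scale in replicate 2 of every group. The gap was widest in Tyrp1, Dct and Pmel. Kit lay at 8.60 and 8.58 in Ovol1 KO arrays 1 and 2, and Sox10 at 8.46 and 8.73 in DKO. Of the 8 genes Kit fell in DKO against control, by 1.43 on the log2 scale (SE 0.25, limma adjusted p = 0.035), and 7 did not pass. Over all genes 2.26% fell in that comparison. Against Ovol1 KO Kit fell by 2.14 (limma adjusted p = 0.011). The summed level of 5 endothelial markers was 448 and 450 in DKO arrays 1 and 2, 1408 and 770 in Ovol1 KO, and 1908 and 745 in control. Among these Kdr lay at 6.79 and 6.65 in DKO, 9.95 and 8.63 in Ovol1 KO, and 10.49 and 8.51 in control. Cdh5, Tie1 and Tek did not show this gap. The part of melanocytes and endothelial cells in the values of Smad7 and Tgfbr3 was not tested. Differences of more than 1 unit between the 2 arrays of a group were found for 2 members in DKO, 2 in Ovol1 KO and 3 in control, and for 2.4%, 2.65% and 2.75% of all genes.

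**Figure D2:**
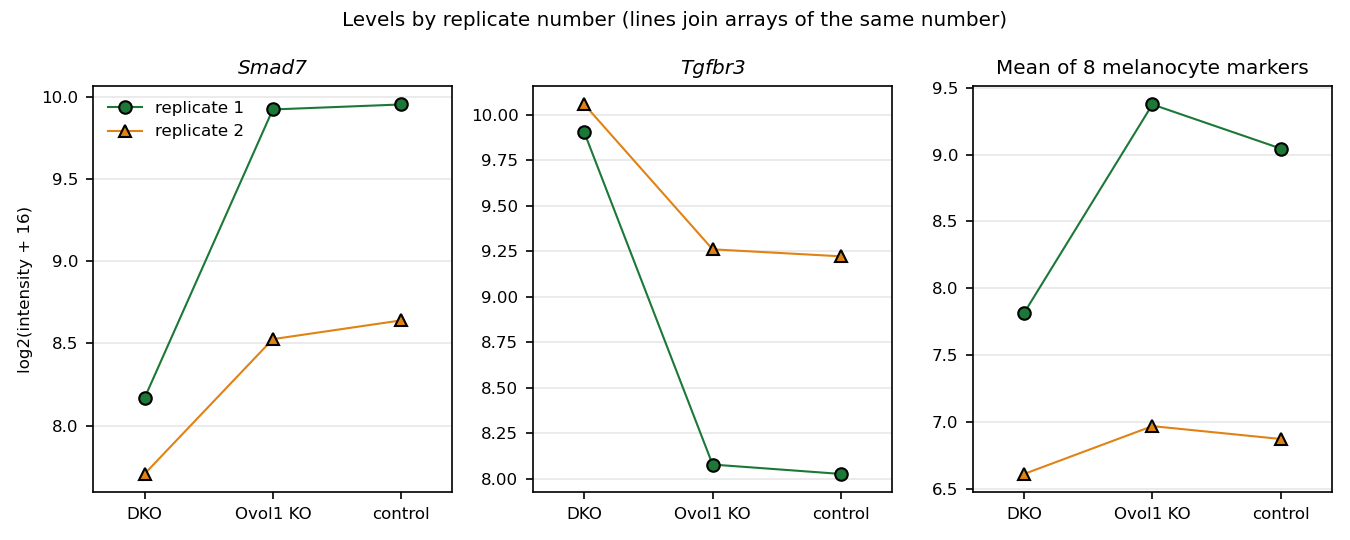
Level of Smad7, of Tgfbr3 and of the mean of 8 melanocyte markers as log2(intensity + 16) in DKO, Ovol1 KO and control, with a line for each replicate number. In Ovol1 KO and control, replicate 1 is above replicate 2 for Smad7 and the melanocyte markers and below it for Tgfbr3, and the gap is smaller in DKO.

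Of 13 Smads and Smad modulators 0 were called in DKO against control, beside 3.2% of all genes. An unadjusted p below 0.05 in limma was found for 2 of the 13 and for 14.5% of all genes. Smad3 and Smad4, the signalling Smads, are given for orientation and were chosen after their values were seen. Smad3 lay at 10.12 and 10.13 in DKO, against 10.48 and 10.41 in control, and Smad4 at 11.59 and 11.64, against 11.50 and 11.57 (limma adjusted p = 0.41 and 0.88). Smurf1, a ubiquitin ligase that acts with Smad7 on the receptor, had the smallest p. Its values were 10.32 and 10.33 in DKO, 11.75 and 10.99 in Ovol1 KO, and 11.82 and 11.36 in control, with a log2 fold change of -1.26 (SE 0.27, limma adjusted p = 0.065). It was called at the same value without either Ovol1 KO array, and at -1.49 without control array 2, while it was -1.03 without control array 1 (limma adjusted p = 0.17) and -0.49 with Xist as a covariate (adjusted p = 0.88).

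Fst (probe set 10412260), which encodes follistatin, the secreted protein that binds and neutralises activin, fell with the narrowest error of the members called. It lay at 8.42 and 8.61 in DKO, 11.07 and 11.26 in Ovol1 KO, and 11.05 and 10.99 in control. The 4 other arrays lay within 0.3 units, and the DKO arrays more than 2 units below them. The log2 fold change was -2.50 (SE 0.17, limma adjusted p = 0.0015) in DKO against control, a 5.67-fold lower signal, and -2.65 (SE 0.17, adjusted p = 0.0014) in DKO against Ovol1 KO. Both calls held with each array left out in turn, and the value against Ovol1 KO array 2 was -2.74 (adjusted p = 0.024).

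Inhba (probe set 10403743), the gene of the activin A chain, had 8.26 and 10.50 in DKO, 12.11 and 11.65 in Ovol1 KO, and 12.37 and 11.95 in control. Both DKO arrays were below the other 4, but they differed from each other by 2.24 units. The log2 fold change of -2.78 in DKO against control was larger than that of Fst, with an SE of 0.64, and did not pass (limma adjusted p = 0.080). It was -1.66 without DKO array 1 (limma adjusted p = 0.066). It was called without DKO array 2, at -3.90 (adjusted p = 0.0069), and at -2.85 on the values as deposited (adjusted p = 0.048). In DKO against Ovol1 KO it was -2.50 (SE 0.64, adjusted p = 0.13). That difference was called without either control array (limma adjusted p = 0.047 and 0.046) and, at -3.62, without DKO array 2 (adjusted p = 0.0096). Without DKO array 1 it was -1.38 and was not called (limma adjusted p = 0.12). Of 7 other ligand and antagonist genes of this branch 0 were called in DKO against control, beside 3.2% of all genes. Fstl1, a secreted follistatin-like glycoprotein, had the smallest p, at 11.07 and 10.94 in DKO, 9.14 and 8.36 in Ovol1 KO, and 9.72 and 7.71 in control. Its log2 fold change was 2.29 (SE 0.61, limma adjusted p = 0.12), called without control array 1 at 3.29 (adjusted p = 0.0017). Without control array 2 it was 1.28 and was not called (limma adjusted p = 0.091).

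Tgfbi (probe set 10405587), which encodes a secreted matrix protein induced by TGF-beta, rose. It lay at 12.13 and 11.77 in DKO, 9.24 and 10.15 in Ovol1 KO, and 9.67 and 9.38 in control. Both DKO arrays were more than 1.5 units above the rest. The log2 fold change was 2.42 (SE 0.31, limma adjusted p = 0.012) in DKO against control, a 5.36-fold higher signal, and 2.25 (SE 0.31, adjusted p = 0.019) in DKO against Ovol1 KO. Without Ovol1 KO array 1 the difference from Ovol1 KO was 1.79 and was no longer called (adjusted p = 0.077). With 1 DKO array left out, the value against control was 2.24 or 2.60 and was not called (adjusted p = 0.086 and 0.054).

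Some fibroblast genes were also higher in the DKO arrays. The summed level of 14 fibroblast markers on the intensity scale was 10872 and 9817 in DKO, 4100 and 4874 in Ovol1 KO, and 4422 and 4932 in control. Most of that difference lay in Dpp4, Fbln1, Postn and Thy1, the 4 brightest in DKO, split off after their values were seen. These 4 summed to 8965 and 7216 in DKO, 1911 and 2996 in Ovol1 KO, and 2452 and 2848 in control. The other 10 summed to 1907 and 2601 in DKO, 2190 and 1878 in Ovol1 KO, and 1970 and 2084 in control. Of the 14 markers 1 rose, 1 fell and 12 did not pass in DKO against control, where 0.943% of all genes rose and 2.26% fell. The one that rose was Postn, encoding the matrix protein periostin, at 11.14 and 10.49 in DKO, against 7.38 and 5.94 in control (log2 fold change 4.16, SE 0.46, limma adjusted p = 0.0070). The one that fell was the receptor gene Pdgfra, by 1.06 on the log2 scale (SE 0.18, limma adjusted p = 0.031). The groups did not overlap for 7 markers higher and 2 lower in DKO, and for 23.1% and 21.5% of all genes. Among the other 10, Col5a2 lay at 7.80 and 8.02 in DKO and at 7.24 and 6.97 in control. Dcn lay at 7.87 and 8.73 in DKO and at 7.22 and 7.72 in control. Neither passed against control (limma adjusted p = 0.072 and 0.29), but Col5a2 rose by 1.04 against Ovol1 KO (limma adjusted p = 0.040). The collagen gene Col1a1 lay at 8.47 and 8.91 in DKO and at 8.43 and 8.55 in control, and Lum at 5.02 and 5.28 and at 5.24 and 5.45, near the low end of the scale, where an intensity of 0 gives 4. None of the 14 was listed at 0. The part of such cells in the level of Tgfbi was not tested.

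Genes known as TGF-beta targets, other than Tgfbi, had mostly negative log2 fold changes in DKO. Of 14 measured target genes 2 fell and 0 rose in DKO against control, beside 2.26% and 0.943% of all genes. A negative log2 fold change was found for 10 of the 14 and for 45.7% of all genes, and the median was -0.51. Hmga2, a chromatin protein gene, lay at 10.03 and 9.82 in DKO, 11.31 and 11.01 in Ovol1 KO, and 11.27 and 11.38 in control, and fell by 1.40 on the log2 scale (SE 0.17, limma adjusted p = 0.010), a call lost without DKO array 2. Against Ovol1 KO Hmga2 fell by 1.23 (limma adjusted p = 0.019), with values from -1.38 to -1.08 when single arrays were left out. That call was lost without either DKO array, without either Ovol1 KO array and with Xist as a covariate. Fn1, the fibronectin gene, had 10.20 and 10.96 in DKO, 12.43 and 11.55 in Ovol1 KO, and 12.66 and 12.32 in control. It fell by 1.92 (SE 0.34, adjusted p = 0.036), a call lost without control array 1 or either DKO array, without the variance trend (limma adjusted p = 0.052) and with the robust fit (adjusted p = 0.068). Against Ovol1 KO the log2 fold change of Fn1 was -1.41 (SE 0.34) and did not pass (limma adjusted p = 0.11). Ccn2, the connective tissue growth factor gene, was chosen after its values were seen. It had 8.86 and 9.95 in DKO, 12.71 and 11.31 in Ovol1 KO, and 12.98 and 11.59 in control. Its log2 fold change of -2.88 (SE 0.62) did not pass (limma adjusted p = 0.065), though the DKO arrays lay below all others. Without control array 2 it was called at -3.57 (adjusted p = 0.0089), and it was -2.18 without control array 1 (adjusted p = 0.099) and -1.496 with Xist as a covariate (adjusted p = 0.87).

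**Figure D3:**
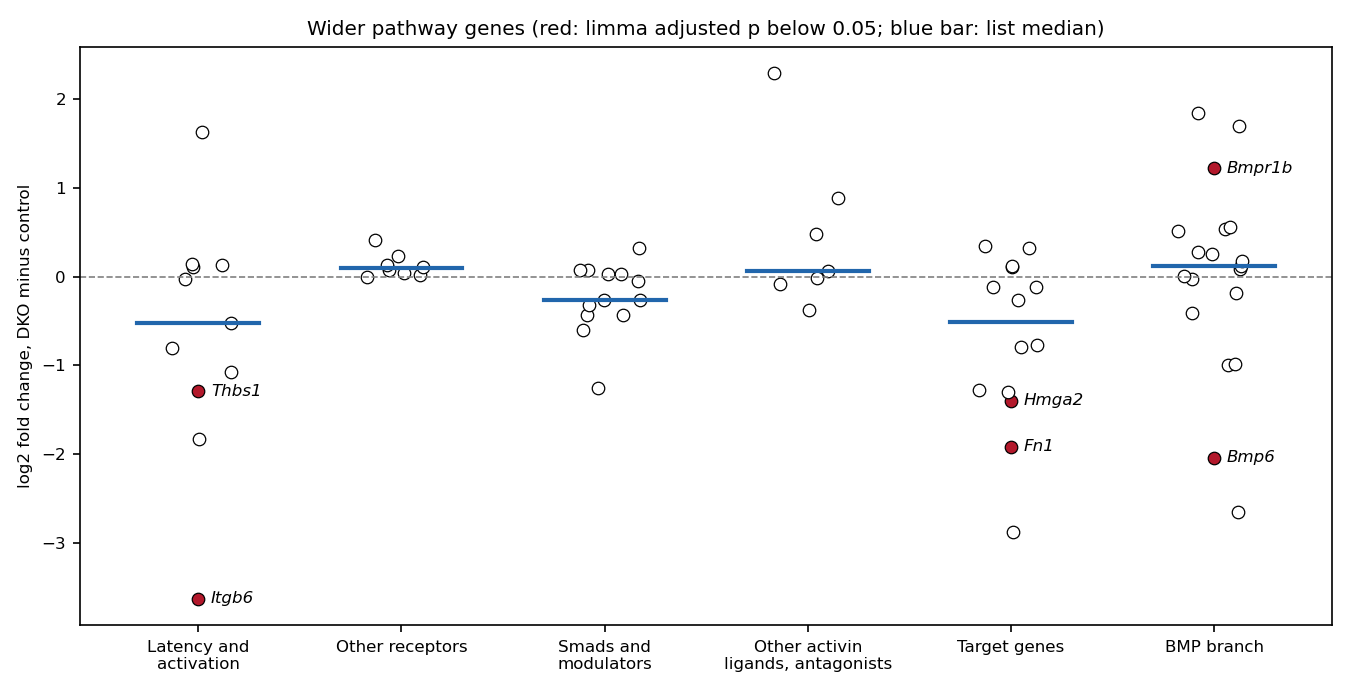
Log2 fold change in DKO against control for the genes of 6 lists around the members, with a point per gene, filled red where limma called it, and a blue bar for the median of each list. Itgb6, Thbs1, Hmga2, Fn1 and Bmp6 are called lower and Bmpr1b higher, and the receptor genes lie between -0.004 and 0.42.

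Loss of Ovol1 alone changed no member by this test. In Ovol1 KO against control 0 of 10 members were called by limma and 0 had an unadjusted p below 0.05. Among all 19938 genes 0% were called, and 162, or 0.813%, had an unadjusted p below 0.05. The members' log2 fold changes ran from -0.28 for Inhba (SE 0.64) to 0.18 for Tgfbi (SE 0.31), with a median of 0.004 against -0.06 over all genes. With single arrays left out the sign turned for 6 members, Tgfb1, Tgfb2, Tgfb3, Tgfbr3, Smad7 and Tgfbi, and kept for Tgfbr1, Tgfbr2, Inhba and Fst. The 2 groups did not overlap for 3 members, Tgfbr1, Tgfbr2 and Fst, all higher in Ovol1 KO, against 24.1% of all genes, 5.8% higher and 18.3% lower. The 95% interval of Fst ran from -0.26 to 0.55 and that of Tgfb2 from -0.93 to 0.48, so a change of Fst or Tgfb2 as large as that in DKO lies outside them. For Smad7 the interval ran from -1.40 to 1.25 and for Inhba from -1.79 to 1.24.

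In DKO against Ovol1 KO, whose labels differ in Ovol2 and K14-Cre, 1 member rose and 2 fell, and they were Tgfbi, Tgfb2 and Fst as in DKO against control. Over all genes 2.15% were called, 0.657% higher and 1.49% lower. An unadjusted p below 0.05 was found for 5 members and for 13.3% of all genes. The groups did not overlap for 8 members, 3 higher and 5 lower, and for 42.2% of all genes, 26.1% higher and 16% lower. With the Xist level as a covariate Tgfb2 and Fst were still called and Tgfbi was not (limma adjusted p = 0.11). Both comparisons use the DKO arrays, so they are not independent of each other. Of the 71 wider pathway genes 0 rose and 4 fell in DKO against Ovol1 KO. In DKO against control 1 of them rose and 5 fell, beside 0.943% and 2.26% of all genes.

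**Figure D4:**
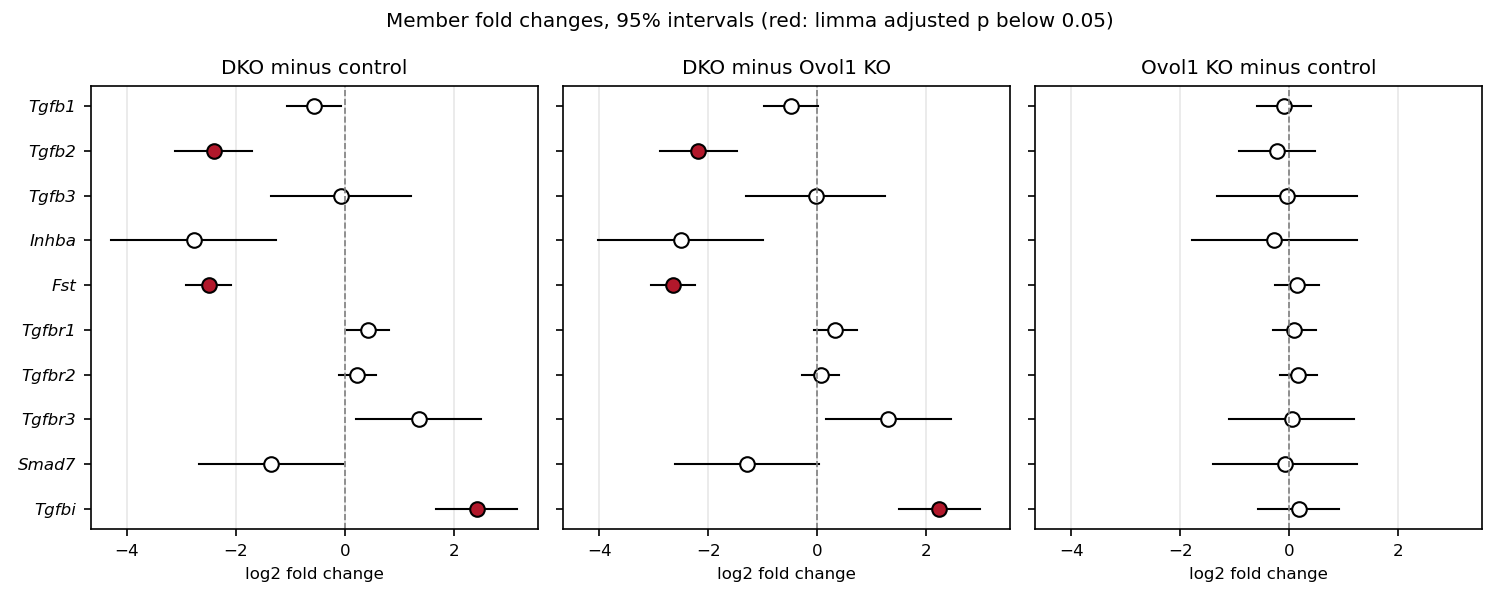
Log2 fold change of each member with its 95% interval in DKO against control, DKO against Ovol1 KO and Ovol1 KO against control, filled red where the limma adjusted p was below 0.05. Tgfb2 and Fst are called lower and Tgfbi higher in both comparisons that hold DKO, and all points of Ovol1 KO against control lie between -0.28 and 0.18.

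For each called member the 3 genes with the highest Pearson correlation over the 6 arrays were looked up, as a description of patterns. The 6 arrays fall into the 2 DKO arrays and the other 4, so these coefficients mostly reflect that split. For Fst they were Ltf, the lactoferrin gene (r = 0.9994), Arhgap44 (r = 0.9975) and Tmc4 (r = 0.9973), and 319 genes lay above 0.95. Ltf lay at 4.53 and 4.89 in DKO, 8.80 and 9.33 in Ovol1 KO, and 8.82 and 8.78 in control. For Tgfbi they were Pcdhb17 (r = 0.9986), Vkorc1l1 (r = 0.9979) and Pcdhb20 (r = 0.9976). Pcdhb17 and Pcdhb20 belong to the clustered protocadherins, whose close copies a probe set may not separate.

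For Tgfb2 they were Mir141 (r = 0.9961), Rac3 (r = 0.9959) and Upk3bl (r = 0.9947). Rac3, a small GTPase gene, had 9.41 and 9.57 in DKO, 10.47 and 10.91 in Ovol1 KO, and 10.70 and 10.71 in control. Mir141 belongs to the miR-200 family, which is known for repressing Zeb1 and Zeb2. Its probe set lay at 5.99 and 5.96 in DKO, 6.25 and 6.41 in Ovol1 KO, and 6.37 and 6.39 in control, with a log2 fold change of -0.40 in DKO against control (SE 0.14, limma adjusted p = 0.22). Probe sets of 3 relatives, chosen after their values were seen, did not pass either. Their log2 fold changes in DKO against control were 0.20 for Mir200a, -0.33 for Mir200b and -0.46 for Mir200c (limma adjusted p = 0.70, 0.70 and 0.33). These are low signals of a whole-transcript array and not a measurement of the mature miRNA. Zeb1 lay at 10.69 and 10.59 in DKO, 6.63 and 7.20 in Ovol1 KO, and 8.04 and 6.01 in control, and rose by 3.61 on the log2 scale against control (SE 0.59, adjusted p = 0.027). The Mir141 probe set is annotated to the gene and separates neither arm. The mature sequence of its 3' arm is shown as that of the gene with the highest correlation to Tgfb2, from RefSeq at chr6:124717917-124717938 on the minus strand of GRCm38.p6, with the seed, bases 2 to 8, in capitals.
mmu-miR-141-3p: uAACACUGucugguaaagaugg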

How the data were processed

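The authors deposited linear intensities, with 1 value for each probe set on each array. Expression Console 1.1.1 and PLIER 2.0 are named, without a role, in the submitters' processing notes. How background was corrected and arrays were scaled is not stated. The 35556 probe sets had no missing value and no detection call, and array medians ran from 174.2 to 203.6. The deposited intensities were increased by 16, log2-transformed and quantile-normalized, so fold changes understate those of dim genes. Probe sets with 1 symbol gave 19938 genes. A limma 3.58.1 model in R 4.3.3 with a mean per group over all 6 arrays had 3 residual and 3.89 prior degrees of freedom, with a variance trend, and was tested on simulated data. Named from the 6 wider lists were up to 4 called genes per list and comparison or, where none was called, the gene with the smallest p, and others are said to be chosen after their values were seen. The members and lists were chosen with earlier results of these data known. The number of arrays limits the precision.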

Additional observations from a re-analysis of the deposited data

How the results depend on the processing

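Each comparison was repeated under 16 alternatives. In DKO against control the members called were 3, and ran from 1 without DKO replicate 1 to 4 without Control replicate 2. With Xist as a covariate 0 of 10 members and 0 of the wider genes were called, while the log2 fold change was -3.32 for Tgfb2, -2.70 for Fst, -3.55 for Itgb6 and 1.501 for Tgfbi. The fit then rests on the 2 Ovol1 KO arrays, which also differ in replicate number. Wider genes called in that comparison were 6, and 3 to 12 with single arrays left out. In DKO against Ovol1 KO the members called ran from 1 to 4 and the wider genes from 1 to 10 with single arrays left out, against 3 and 4. The wider count was 9 with only the 4 arrays compared and 1 with Xist as a covariate. The replicate number as a block gave 4 members and 13 wider genes called in DKO against control, and 1069 of all genes, against 639. Smad7 then passed (adjusted p = 0.046). Deviations from the group means correlated between same-numbered arrays at 0.687 for Ovol1 KO and control, 0.151 for DKO and control and 0.087 for DKO and Ovol1 KO, but the labels give the numbers no shared litter or day.

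Among the genes repeated in this way, signs turned only in comparisons in which the gene was not called. In DKO against control, Smad7 (0.059) and Acvrl1 (-0.31) turned with Xist as a covariate, and leaving out single arrays gave -0.79 to 0.66 for Tgfb3. In DKO against Ovol1 KO, Tgfb3 was 0.0015 on the values as deposited and ran from -0.76 to 0.70, and Tgfbr2 ran from -0.11 to 0.24. In Ovol1 KO against control, single arrays left out gave -0.25 to 0.068 for Tgfb1, -0.67 to 0.22 for Tgfb2, -0.66 to 0.59 for Tgfb3, -0.55 to 0.64 for Tgfbr3, -0.77 to 0.63 for Smad7 and -0.28 to 0.63 for Tgfbi. Xist as a covariate there gave -0.53 for Tgfbr3, 0.61 for Smad7 and -0.27 for Tgfbi. The causes were not tested. Over all genes, those called in DKO against control were 8 with Xist as a covariate, 258 without DKO replicate 1 and 309 without DKO replicate 2, against 639. In DKO against Ovol1 KO they were 74 with Xist as a covariate, 805 with the replicate block, 738 with only the 4 arrays compared and from 88 to 738 with single arrays left out, against 429. Tgfb2 and Fst kept their sign under all 16 alternatives in both comparisons with DKO, as did Tgfbi. Few arrays and no detection calls limit what can be read from low signals.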

Other observations

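In the BMP branch, whose ligands signal through Smad1, Smad5 and Smad9, 1 of 19 genes rose and 1 fell in DKO against control, beside 0.943% and 2.26% of all genes, with a median log2 fold change of 0.12. The ligand gene Bmp6 lay at 7.60 and 6.90 in DKO, 9.32 and 9.19 in Ovol1 KO, and 9.05 and 9.53 in control, and fell by 2.04 on the log2 scale (SE 0.29, limma adjusted p = 0.016). Against Ovol1 KO Bmp6 fell by 2.01 (limma adjusted p = 0.022), with values from -2.36 to -1.65 when single arrays were left out. That call was lost without DKO array 2, without either Ovol1 KO array and with Xist as a covariate. The type I receptor gene Bmpr1b lay at 9.10 and 9.60 in DKO, 8.45 and 8.46 in Ovol1 KO, and 8.29 and 7.96 in control. It rose by 1.22 against control (SE 0.23, limma adjusted p = 0.043). Its log2 fold change of 0.89 against Ovol1 KO did not pass (limma adjusted p = 0.14). Bmpr1b lost its call against control with any single array left out, and Bmp6 lost its call against control without DKO array 2. Of the BMP target genes, chosen after their values were seen, Id1 lay at 11.01 and 9.39 in DKO, against 9.28 and 7.43 in control, and Id2 at 10.47 and 6.75, against 11.90 and 10.62. Neither Id1 nor Id2 passed (limma adjusted p = 0.29 and 0.32). The Id2 values of the 2 DKO arrays lay farther apart than those of the other groups.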
